A study of Homo sapiens with 12 samples.

Results

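RUNX1 knockdown was compared with the empty pLKO vector in K562, an established human line from a chronic myeloid leukemia that is widely used as a model of early erythroid and megakaryocytic cells. The comparison rests on 6 of the 12 libraries of the series, chosen by their sample titles: 3 of cells infected with lentivirus carrying pLKO-shRunx1 and 3 of cells infected with lentivirus carrying the pLKO vector. Stable pools were obtained by hygromycin selection, not single clones, and all cells were grown in RPMI-1640 with serum. The control is labelled as the vector, so nothing in the labels says that it carries a hairpin of its own. RNA of 3 libraries with DNMT3A knockdown was quantified on the same list of features and enters the fit for its estimate of the spread. The replicates are described in the study's methods as biological.

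RUNX1 is a DNA-binding transcription factor of the Runt family that works with its partner CBFB, which does not bind DNA itself but stabilises RUNX1 on its sites. It is required for the formation of blood stem cells and for the maturation of megakaryocytes and lymphocytes, and it is among the genes most often mutated or translocated in myeloid leukemia. RUNX1 can activate or repress a gene, depending on whether it brings co-activators or co-repressors to it. The comparison addressed which transcripts change when RUNX1 is reduced, in a study of how RUNX1 and the DNA methyltransferase DNMT3A act together.

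A pLKO hairpin is transcribed as a sense stretch, a loop and an antisense stretch, and the antisense strand guides the silencing machinery to the matching mRNA. The study lists a pair of RUNX1 hairpins, and the sources used here do not say which of them was sequenced, so both targets are shown because they define the treatment. They are printed 5′ to 3′ in the sense of the mRNA, the target of 21 bases in capitals between 20 bases of transcript on each side, from GENCODE release 29 on GRCh38.
shRUNX1#2: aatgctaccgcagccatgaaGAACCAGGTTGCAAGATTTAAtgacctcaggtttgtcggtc
shRUNX1#3: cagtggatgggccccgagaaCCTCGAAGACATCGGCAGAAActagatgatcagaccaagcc
Both stretches lie wholly in the coding sequence of a RUNX1 transcript that has 8 exons and is read from the minus strand. Not every RUNX1 transcript holds them. Of 9 protein-coding ones, 6 hold the target of shRUNX1#2 and 5 that of shRUNX1#3. The capitals of shRUNX1#2 cover chr21:34880589-34880609 in exon 4 and codons 152 to 159. Those of shRUNX1#3 cross a splice junction, with 7 bases at chr21:34859474-34859480 in exon 5 and 14 bases at chr21:34834588-34834601 in exon 6, and cover codons 203 to 209. In a search of all GENCODE transcripts without gaps, the closest site for shRUNX1#2 outside RUNX1 was in PPP6R2, a regulatory subunit of protein phosphatase 6, with 2 mismatches, and no other gene came within 3. The other members of the Runt family were further away, with at least 5 mismatches in RUNX2 and 4 in RUNX3. For shRUNX1#3 no other gene came within 3 mismatches, and the counts were 7 in RUNX2 and 6 in RUNX3. These matches describe the letters and not whether a site was silenced.

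The values are TPM, a transcript level corrected for length and scaled to the same total in every library, and so a share of that library. The deposited list holds 59317 features, of which 58233 are annotated and 1084 were newly assembled from the reads, and each name is cut to 8 characters. No feature can therefore be matched to a gene, so neither RUNX1 itself nor the markers of K562 could be looked up, and features are given here by their place in the list. TPM keeps no read depth, so no counting interval or detection limit can be given. In bulk RNA it also cannot be told apart whether fewer cells carried a transcript or each cell carried less of it. A feature was tested if 3 or more of the 6 libraries reached 1 TPM, which left 14650. Fold changes are differences of log2(TPM + 1), RUNX1 knockdown minus pLKO, which understates the change of low features.

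Before any comparison of groups, 1 control library stood apart. In pLKO replicate 1, 12496 features reached 1 TPM, while replicates 2 and 3 had 14706 and 14986 and the RUNX1 knockdown libraries 14453 to 14777. The median level of the tested features was 7.2 TPM there, and between 13.4 and 14.2 TPM in the other 5 libraries. Its 100 highest features took 51.0% of the total, against at most 40.4% in each of the others. The correlation of log2(TPM + 1) over tested features was 0.964 and 0.960 between this library and the other pLKO libraries, 0.984 between those, and 0.984 to 0.986 within the RUNX1 knockdown. Correlations across features describe the libraries and are not tests, since features are not independent replicates.

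The shortfall of pLKO replicate 1 depended on expression level. When the tested features were split into 5 bins of 2930 by their mean over the 6 libraries, its median deviation from that mean was -0.58 on the log2 scale in bin 1 (the lowest), -0.71 in bin 2, -0.69 in bin 3, -0.54 in bin 4 and -0.27 in bin 5 (the highest). The 5 other libraries lay between 0.05 and 0.21 in every bin. Bins 1 to 5 ran up to 2.66, 7.83, 18.2, 47.2 and 48600 TPM. In the highest bin lay 90.1% of the TPM of pLKO replicate 1, against 83.0% to 84.1% in the others. The plot of library level by expression bin shows this one line apart from the rest.

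**Figure D1:**
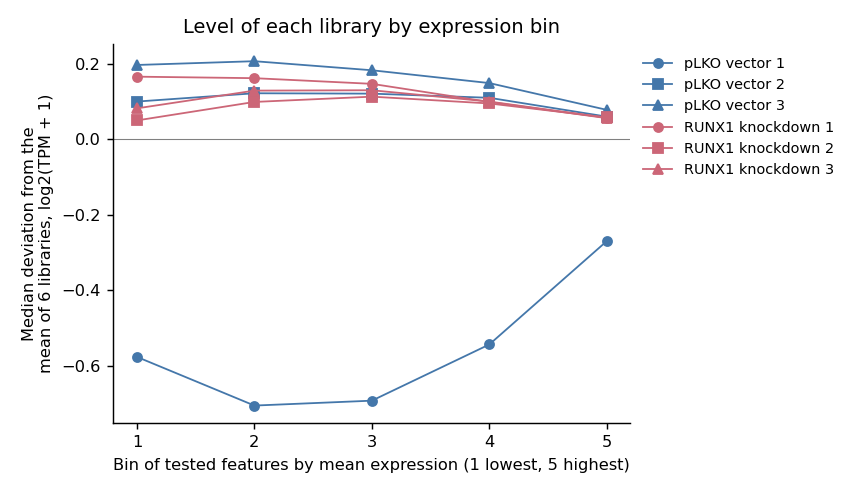
The horizontal axis gives the bin of tested features by mean expression and the vertical axis the median deviation of a library from the mean of the 6 libraries, in log2(TPM + 1), with blue for pLKO vector and red for RUNX1 knockdown. pLKO replicate 1 runs between -0.71 and -0.27, and the 5 other libraries stay between 0.05 and 0.21.

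With all libraries, 324 features were higher and 223 were lower in RUNX1 knockdown cells (3 libraries against 3), at an adjusted p-value under 0.05 from limma and at least 1.5-fold. Calls made up 3.73% of the tested features, 2.21% higher and 1.52% lower. Rises had a median log2 fold change of 1.07 and falls of -1.09, and 189 rises and 126 falls were at least 2-fold. At least 4-fold were 22 rises and 18 falls, and at least 8-fold were 2 and 2. In all 547 the RUNX1 knockdown libraries lay wholly on one side of the pLKO libraries, as they did in 29.1% of all tested features, 21.5% higher and 7.56% lower. At 1.5-fold with no p threshold, 1861 features were higher and 527 lower, 16.3% of those tested (12.7% higher and 3.6% lower).

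When pLKO replicate 1 was left out, the direction of the balance turned. There were then 457 features higher and 701 lower, 7.9% of those tested (3.12% higher and 4.78% lower). Rises thus made up 39.5% of the calls in place of 59.2%. With the omitted control counted too, the groups did not overlap in 437 of these rises and 396 of these falls. Over all tested features, 21.5% were higher without overlap and 7.56% lower. Over all tested features the median log2 fold change went from 0.20 to -0.03. Of the 324 rises, 301 were called again without this library, and of the 223 falls 216 were. The 485 falls that were called without it and not with it had a median log2 fold change of -0.53 with all libraries and -0.78 without replicate 1. The 156 additional rises had medians of 0.86 and 0.69. No feature called in one setting was called in the opposite direction in the other. The fits shared every library but this one, so that is no independent support.

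The same can be seen library by library. Set alone against the mean of the RUNX1 knockdown, pLKO replicate 1 gave 8085 features at least 1.5-fold higher in the knockdown and 451 lower, whereas replicate 2 gave 852 and 967 and replicate 3 gave 695 and 1238. Each RUNX1 knockdown library alone against the pLKO mean gave 1944 to 2381 higher and 529 to 739 lower. Among the 324 called rises, 319 were past 1.5-fold against pLKO replicate 1, 293 against replicate 2 and 289 against replicate 3. Among the 223 called falls these numbers were 192, 215 and 212. For each control library taken alone, most called features were thus past the fold threshold. The features had been called from these same libraries at that threshold, so the counts follow largely from the selection and test nothing. How many were past it against all 3 controls at once was not counted.

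The choice of libraries for the spread also mattered. With only the 6 pLKO and RUNX1 knockdown libraries in the fit, 91 features were higher and 95 lower, 1.27% of those tested (0.621% higher and 0.648% lower), and 2081 features had an unadjusted p-value under 0.05. When pLKO replicate 1 was also left out of that fit, 432 were higher and 650 lower. Leaving out RUNX1 knockdown replicate 1, 2 or 3 in place of a control lowered the counts of the 9-library fit. They became 129, 112 and 120 higher and 139, 104 and 113 lower. Leaving out pLKO replicate 2 gave 259 and 139. Without pLKO replicate 3 the rises went up to 431 and the falls went down to 177.

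**Figure D2:**
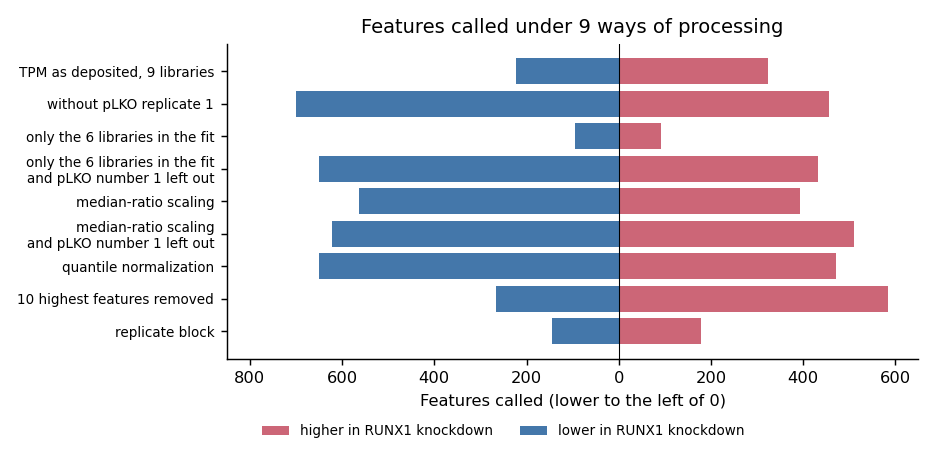
Each bar gives the number of features called under 1 way of processing, with features higher in the RUNX1 knockdown to the right of 0 in red and lower ones to the left in blue. Rises outnumber falls with TPM as deposited in 9 libraries (324 and 223), with the 10 highest features removed (585 and 267) and with the replicate block (179 and 145). Falls outnumber rises without pLKO replicate 1 (457 and 701), after median-ratio scaling (394 and 563) and after quantile normalization (471 and 651). They also do so with 6 libraries (91 and 95), with these less pLKO replicate 1 (432 and 650) and after median-ratio scaling without it (511 and 622).

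By expression level, the shift of the whole distribution was present in every bin and left with pLKO replicate 1. From the lowest to the highest bin, the median log2 fold change was 0.19, 0.26, 0.26, 0.20 and 0.12 with all libraries. Without pLKO replicate 1 the medians were -0.06, -0.03, -0.02, -0.03 and -0.014. The plot of fold change against level sets both fits side by side.

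**Figure D3:**
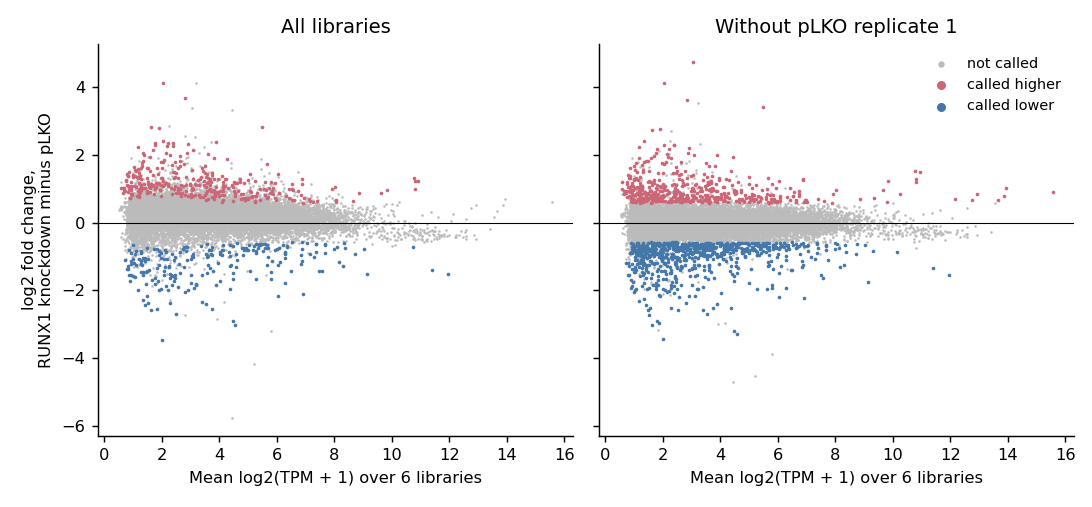
Each point is a tested feature, with its mean log2(TPM + 1) over the 6 libraries on the horizontal axis and its log2 fold change, RUNX1 knockdown minus pLKO, on the vertical axis, for all libraries on the left and without pLKO replicate 1 on the right. Red points are called higher (324 and 457) and blue points called lower (223 and 701), and the grey cloud moves from a median of 0.20 to -0.03.

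Calls were spread over the whole range of expression. With all libraries, 92 rises and 50 falls lay in bin 1, 74 and 53 in bin 2, 68 and 29 in bin 3, 43 and 37 in bin 4, and 47 and 54 in bin 5. The share of features called was thus 4.85% in the lowest bin and 2.73% in bin 4, beside 3.73% over all features. Without pLKO replicate 1 the lowest bin had 144 rises and 177 falls, bin 2 had 122 and 207, and the highest 61 and 96. Falls then outnumbered rises in each of the 5 bins, and the share called was 11.0% in the lowest bin and 5.36% in the highest, beside 7.9% over all.

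**Figure D4:**
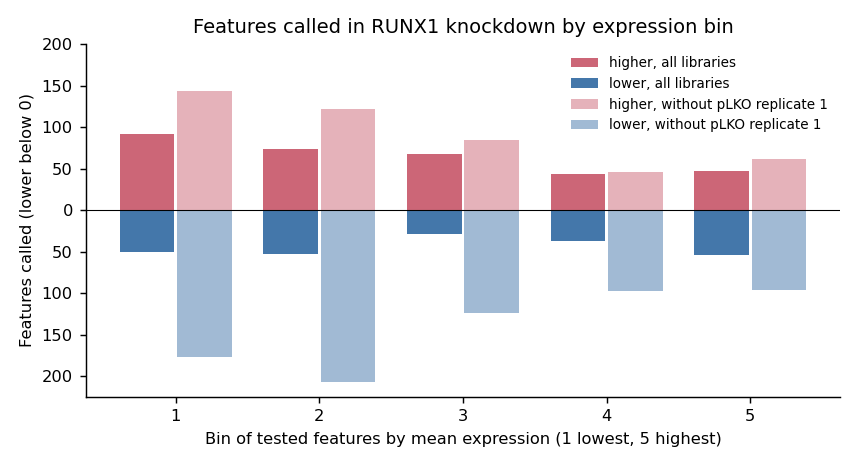
Bars above 0 count features called higher and bars below 0 features called lower in the RUNX1 knockdown, by bin of mean expression, in full colour for all libraries and in pale colour without pLKO replicate 1. The pale lower bars reach 177 and 207 in bins 1 and 2, where the full ones reach 50 and 53.

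The spread between replicates behind these calls fell with expression. The median standard deviation within the RUNX1 knockdown was 0.197 on the log2 scale in the lowest bin and 0.058 in the highest. Within pLKO it was 0.463 and 0.233, and between pLKO replicates 2 and 3 alone 0.172 and 0.051. The median standard error of a fold change in bin 3 was 0.245 with all libraries and 0.109 without pLKO replicate 1. The larger number of calls without this library therefore came with a smaller error and 1 control fewer.

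How much RNA the called features carried depended on pLKO replicate 1. With all libraries, the 324 rises summed to 12505, 11153 and 11461 TPM in pLKO replicates 1 to 3, and to 24124, 23921 and 23932 TPM in the RUNX1 knockdown. The 223 falls summed to 26755, 27146 and 27595 TPM in pLKO and to 13227, 11036 and 11840 TPM in the knockdown. Without pLKO replicate 1 in the fit the 457 rises, among them the most abundant feature of all, summed to 156795, 163655 and 168213 TPM in the knockdown. They summed to 86006 and 90897 TPM in pLKO replicates 2 and 3, but to 158886 TPM in the omitted replicate 1, within the range of the knockdown. The 701 falls then summed to 20234, 17407 and 18243 TPM in the knockdown. In pLKO replicates 2 and 3 they summed to 39730 and 39684 TPM, and in the omitted replicate 1 to 31459 TPM. Since the fits chose these features by the same values, the sums describe their size and test nothing. With all libraries their median level was 7.41 TPM for the rises and 10.9 TPM for the falls, and 4 rises and 3 falls had a mean of at least 1000 TPM, against 12 rises and 3 falls without pLKO replicate 1.

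The most abundant feature, singled out after its values were seen, was called without pLKO replicate 1 and not with all libraries. It stood at 60813, 29437 and 34617 TPM in pLKO replicates 1 to 3, while RUNX1 knockdown replicates 1 to 3 had 54015, 61145 and 64216 TPM. The knockdown libraries were above pLKO replicates 2 and 3 and on both sides of replicate 1. Its log2 fold change was 0.59 (SE 0.23, limma adjusted p = 0.176) with all libraries, and 0.90 (SE 0.11, limma adjusted p = 0.000967) without replicate 1.

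Most of the very abundant features had a lower share in the RUNX1 knockdown. Of the 138 features with a mean of at least 1000 TPM, a limit set after seeing the data, 111 had a negative fold change with all libraries and 107 without pLKO replicate 1. Their median log2 fold change was -0.29 and -0.24 in these settings, against 0.20 and -0.03 over all tested features. The median was -0.54 after median-ratio scaling and -0.05 after quantile normalization, where 84 of the 138 were negative. Most of them were not called in any of these settings, which also held for the tested features as a whole. Over all tested features 3.73% were called with all libraries and 7.9% without pLKO replicate 1. The calls among the 138 did not follow their median. There were 4 higher and 3 lower with all libraries, 12 and 3 without pLKO replicate 1, 0 and 2 after median-ratio scaling, 14 and 2 after that scaling without pLKO replicate 1, and 8 and 2 after quantile normalization. Together they held 43.3% and 42.4% of the TPM in pLKO replicates 2 and 3, 44.0% to 44.7% in the RUNX1 knockdown and 56.2% in pLKO replicate 1. The most abundant of them alone held 2.94% and 3.46% in pLKO replicates 2 and 3 and 5.4% to 6.42% in the knockdown.

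The features with the largest changes were chosen by rule among called features whose groups did not overlap, in each direction the largest log2 fold change where all 6 libraries reached 1 TPM and the largest difference of mean TPM. Since the rule used the contrast, the p-values below describe how the features passed and do not test them anew. Called log2 fold changes of 4.10, 3.67 and -3.47 were among the widest but had libraries below 1 TPM, so the rule passed them over. The largest rise by rule was at position 58355, a newly assembled feature. Its level was 38.55, 9.13 and 11.5 TPM in pLKO replicates 1 to 3 and 121.36, 120.31 and 114.71 TPM in the RUNX1 knockdown. The knockdown libraries lay close together and above all controls, and the controls themselves differed by over 4-fold. The log2 fold change was 2.81 (SE 0.54, limma adjusted p = 0.0207), and 3.41 (SE 0.43, limma adjusted p = 0.00117) without pLKO replicate 1, which was the highest control. The call was lost without pLKO replicate 2, where the limma adjusted p was 0.0624, and without any 1 of the RUNX1 knockdown libraries, where it lay between 0.0811 and 0.086. It was also lost with no filter (limma adjusted p = 0.0562), after median-ratio scaling (0.0534), with limma's treat (0.164) and at an adjusted p under 0.01. Thus 12 of the 20 alternatives kept it. For this and the next features, the 20 include dropping the p threshold or the fold threshold, where a call cannot be lost.

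The largest rise in TPM was at position 17936, an annotated feature, with 1819.95, 1051.89 and 1089.67 TPM in pLKO and 3012.1, 2975.36 and 2966.27 TPM in the RUNX1 knockdown. The knockdown libraries again agreed closely, with a mean of 2984.6 TPM ± 24.3 (SD, n = 3), and the highest control was replicate 1. The log2 fold change was 1.22 (SE 0.17, limma adjusted p = 0.00489). It was called under 18 of the 20 alternatives. With limma's treat the adjusted p was 0.251. After median-ratio scaling the fold change was 0.97 with a limma adjusted p of 0.16, which is no longer a call, and without pLKO replicate 1 it was 1.48 (limma adjusted p = 2.11e-06).

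The deepest fall by rule was at position 113, an annotated feature. It stood at 47.66, 74.78 and 84.71 TPM in pLKO and fell to 8.48, 6.03 and 7.58 TPM with the knockdown, where the mean was 7.36 TPM ± 1.2 (SD, n = 3). Every knockdown library was below every control, and the lowest control was replicate 1. The log2 fold change was -3.04 (SE 0.21, limma adjusted p = 0.000181), and it was called under each of the 20 alternatives, between -3.28 and -2.87.

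The largest fall in TPM was at position 53982, also annotated. The pLKO libraries had 6764.68, 6694.44 and 7037.97 TPM, and RUNX1 knockdown libraries 2934.96, 2017.59 and 2232.44 TPM. Here pLKO replicate 1 lay between the other controls, and the spread was wider in the knockdown, at 2395 TPM ± 479.8 (SD, n = 3) against 6832.4 TPM ± 181.5. The log2 fold change was -1.53 (SE 0.12, limma adjusted p = 0.000321) and -1.54 without pLKO replicate 1, and it was called under each of the 20 alternatives.

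**Figure D5:**
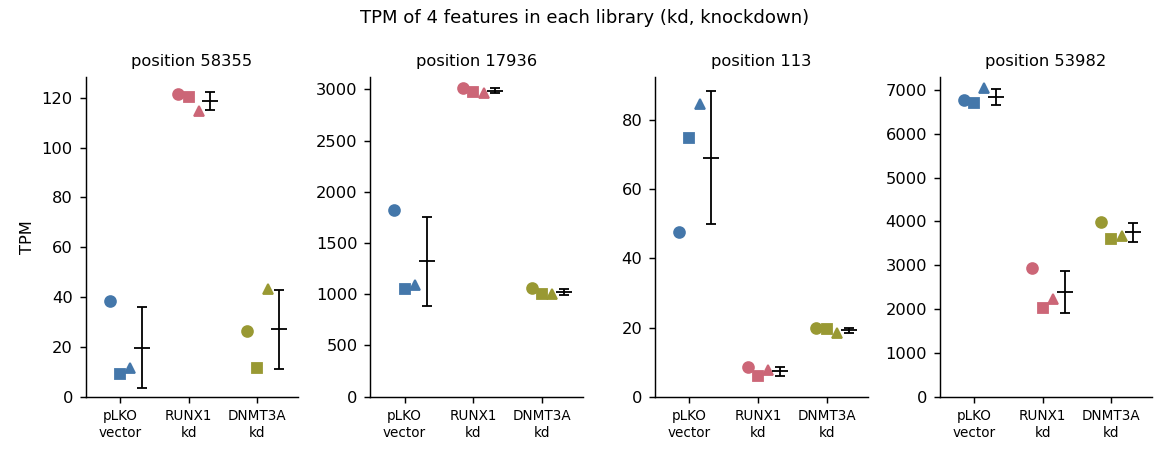
Each panel gives the TPM of 1 feature, by its position in the list, in the 3 pLKO vector libraries (blue), the 3 RUNX1 knockdown libraries (red) and the 3 DNMT3A knockdown libraries (olive), with circles, squares and triangles for replicates 1 to 3 and black bars for the mean ± SD. In the 2 panels on the left the RUNX1 knockdown lies above both other groups, and in the 2 on the right it lies below both.

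A wide fitted change was not always called, and replicates disagreed in the examples given here. Of the 10 widest log2 fold changes in either direction, 4 were called and 6 were not. Over all tested features 3.73% were called, but a call needed a 1.5-fold change, which favours the widest. The widest of all, in a newly assembled feature, was -5.76 with a standard error of 1.84 (limma adjusted p = 0.114). The pLKO libraries had 697.75, 59.7 and 99.9 TPM, and the feature was listed at 25.65, 0 and 0 TPM with RUNX1 knockdown. The values spanned over 10-fold within pLKO, and an exact 0 in TPM can be a failed estimate as well as an absent transcript. Another, in an annotated feature, was 3.33 (SE 0.96, limma adjusted p = 0.0856), with 0, 21.56 and 13.55 TPM in the controls and 97.39, 64.61 and 50.81 TPM with the knockdown, and pLKO replicate 1 was the library listed at 0. These examples were chosen after their values were seen.

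Changes from or to a listed 0 were rare. In 3 annotated features every pLKO library was listed at 0 while every RUNX1 knockdown library reached 1 TPM, with mean levels of 1.28, 3.24 and 18.5 TPM in the knockdown, of which 1 was called. The reverse, 0 in all 3 RUNX1 knockdown libraries and at least 1 TPM in all 3 pLKO libraries, was found for 0 features. All 59317 deposited features were searched. The reverse needed 1 TPM in pLKO replicate 1, which had the fewest features at that level, so the patterns were not equally easy to meet. Of the newly assembled features 818 were tested, with 28 called higher and 15 lower, which is 5.26% beside 3.64% of the annotated ones and 3.73% of all.

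The DNMT3A knockdown was compared with the same pLKO libraries, so an error of a control enters both comparisons, and the levels of the 4 features are given side by side. The feature at position 58355 stood at 26.45, 11.43 and 43.25 TPM in DNMT3A knockdown replicates 1 to 3, overlapping the controls. That at position 17936 stood at 1057.16, 998.94 and 1005.29 TPM, near pLKO replicates 2 and 3. Both falls were also found in the DNMT3A knockdown against pLKO (limma adjusted p = 0.00326 and 0.00525), with 19.78, 19.5 and 18.45 TPM at position 113 and 3988.32, 3593.83 and 3665.17 TPM at position 53982, between pLKO and the RUNX1 knockdown in both cases.

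Contrasted directly in the same 9-library fit, in which the pLKO libraries still contributed to the error, the RUNX1 knockdown differed from the DNMT3A knockdown at 3 of the 4 features. The log2 difference was 1.55 at position 17936 (SE 0.17, limma adjusted p = 0.00452), -1.29 at position 113 (SE 0.21, limma adjusted p = 0.0248) and -0.66 at position 53982 (SE 0.12, limma adjusted p = 0.0349). At position 58355 it was 2.28 (SE 0.54, limma adjusted p = 0.0958), which missed the threshold. That miss depended on pLKO replicate 1. Without this library the same difference had an SE of 0.38 (limma adjusted p = 0.0051), and when the fit held the 6 knockdown libraries alone an SE of 0.40 (limma adjusted p = 0.00921). The other 3 features passed in both of these fits, which were chosen after seeing the data. All 4 were chosen for their change in the RUNX1 knockdown, which favours a wider difference here. The shares of all tested features that pass this contrast, or that of the DNMT3A knockdown against pLKO, are not given here. The counts among the 4 features can therefore not be set against them.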

How the data were processed

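Total RNA of K562 cells was sequenced in 12 libraries, of which the 3 pLKO vector, 3 RUNX1 knockdown and 3 DNMT3A knockdown libraries were used. The authors deposited TPM per feature and library. Per the labels, the submitters' processing notes name HISAT2 2.1.0, RSEM 1.3.1, DESeq2 1.24.0 and GRCh38.p13, without roles. The 3 pLVX libraries have another feature list and were not used here.

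Deposited names are cut to 8 characters and values run into them, so files were read by fixed width and joined by row position. Features that reached 1 TPM in 3 or more of the 6 libraries were tested on log2(TPM + 1) with limma 3.58.1 (R 4.3.3), trended empirical Bayes, all 9 libraries in one fit. Calls needed a Benjamini-Hochberg adjusted p under 0.05 over all tested features and 1.5-fold. Alternatives were other filters, pseudocounts, scalings, thresholds and sets of libraries, and fits without a library kept the same features.

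Hairpins from the study's oligo list were matched to GENCODE 29 transcripts with Python 3.11.15. At most 2 risen and 2 fallen features were named, by the rule given in the text. The comparison, expression bins and rules were chosen with earlier results of these data known. TPM holds no depth, so its precision comes from the replicates alone.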

Additional observations from a re-analysis of the deposited data

Results flagged for a closer look

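The effects of the knockdowns were compared directly, RUNX1 knockdown minus DNMT3A knockdown, for the 4 features given by position. They differed at 3 of them, with a limma adjusted p under 0.05. All 4 had been chosen for their change in the RUNX1 knockdown, which favours a difference here. The share of all tested features that pass this contrast is not given. The log2 difference was 1.55 at position 17936, where the RUNX1 knockdown rose and the DNMT3A knockdown did not pass the test (limma adjusted p = 0.404). It was -1.29 at position 113 and -0.66 at position 53982, where both knockdowns fell and the RUNX1 knockdown fell further. At position 58355 the difference passed when pLKO replicate 1, or all pLKO libraries, were left out of the fit (limma adjusted p = 0.0051 and 0.00921), and not with all 9 libraries. With 3 libraries a group, no test for an outlying value of a single feature was run, and pLKO replicate 1 was examined over all features instead.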

How the results depend on the processing

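The called counts depended on the processing, and their cause was not tested except by construction. Main counts were 324 higher and 223 lower. With no filter 210 were higher. With only the 6 libraries in the fit there were 91 higher and 95 lower, and with pLKO replicate 1 also left out 650 lower. The replicate block gave 179 higher and 145 lower. Same-numbered pLKO and RUNX1 knockdown libraries did not deviate together (correlations of deviations -0.119, -0.0365 and 0.0255), and no pLKO library correlated best with its own number. Median-ratio scaling gave 563 lower, with a median log2 fold change of -0.126 in the highest expression bin against 0.122. Quantile normalization gave 651 lower. Median-ratio scaling without pLKO replicate 1, chosen after seeing the data, gave 511 higher and 622 lower. Removing the 10 highest features gave 585 higher. Limma's treat gave 31 and 31. At 1.5-fold with no p threshold there were 1861 higher and 527 lower, with no fold threshold 346 lower, and at an adjusted p under 0.01 there were 116 and 114.

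Leaving out 1 library gave from 112 to 457 higher and from 104 to 701 lower. Each RUNX1 knockdown library left out gave 129, 112 and 120 higher and 139, 104 and 113 lower. With pLKO replicate 2 left out 139 were lower, and with pLKO replicate 3 left out 431 were higher and 177 lower. The median log2 fold change ranged from -0.029 to 0.335 over all features, from -0.056 to 0.335 in the lowest expression bin and from -0.014 to 0.182 in the highest. Of the 80 values for the 4 named features under 20 alternatives, 70 stayed called, 10 lost the call and 0 changed direction. Dropping the p threshold or the fold threshold only loosened the rule on the same fit, so no call could be lost there. These settings, limma's treat and the threshold of 0.01 kept the same fold change, so its direction could not change. Called with all libraries, without pLKO replicate 1, with the 6 libraries alone, with the replicate block, after median-ratio scaling and after quantile normalization were 76 rises and 94 falls. Since TPM values keep no read depth, its effect could not be assessed.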
